A study of Mus musculus with 6 samples.

Results

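miR-126a is a microRNA (miRNA) of endothelial cells, the cells that line blood vessels, and its 2 mature strands (arms), miR-126a-3p and miR-126a-5p, were followed here in immune cells isolated from mouse liver. The members were chosen by name, with earlier results of these data known. Of the 1960 mature mouse miRNAs in the deposited count table, 2 were the arms of miR-126a, and both passed the filter on low counts. The hairpin that yields them is transcribed within Egfl7, a gene for a protein that endothelial cells secrete. In endothelial cells the 3p arm is known to repress Spred1 and Pik3r2, which restrain signalling from the vascular endothelial growth factor receptor, and the 5p arm to repress Dlk1, an inhibitor of endothelial proliferation. Outside endothelium, miR-126 is also known from blood-forming progenitors and from megakaryocytes and platelets. In liver, endothelial cells line the sinusoids, the capillaries through which immune cells enter the tissue.

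All mice were wildtype C57BL/6J females, 10 weeks old. ConA+D8THC mice were given the lectin concanavalin A (ConA), which by T-cell activation brings about an immune-mediated hepatitis, into the retro-orbital sinus at 12.5 mg/kg, and delta-8-tetrahydrocannabinol (D8THC), a cannabinoid, into the peritoneum at 20 mg/kg in 100 µL, first 15 to 18 h ahead of ConA and a second time 30 min after it. ConA+Vehicle mice were given ConA at the same dose with DMSO in corn oil, the D8THC solvent. Vehicle mice received the solvent only and were free of disease. Each group had 2 libraries that the labels call biological replicates, with the number of mice behind each library not given in the sources used here. D8THC alone, without ConA, was not among the 3 groups.

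The 3p arm is printed first because it carried most of the miR-126a counts, and its seed, bases 2 to 8 from the 5′ end, is in capitals. It is followed by the hairpin of Mir126a with the whole 3p arm in capitals, and then by the arms of miR-126b, whose hairpin is annotated on the opposite strand of the same place, with their seeds in capitals. Sequences are those of RefSeq in build GRCm38.p6.
miR-126a-3p: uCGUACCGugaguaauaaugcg
Mir126a hairpin: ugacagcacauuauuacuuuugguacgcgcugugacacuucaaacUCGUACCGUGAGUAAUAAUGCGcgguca
miR-126b-3p: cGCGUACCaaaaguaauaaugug
miR-126b-5p: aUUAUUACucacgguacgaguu

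The Mir126a hairpin lies on chromosome 2, plus strand, at chr2:26591357-26591429 in GRCm38.p6 (mm10), and the 3p arm takes bases 46 to 67 of its 73 bases, at chr2:26591402-26591423. In GENCODE M21, Egfl7 spans chr2:26580014-26593120 on the same strand with 19 annotated transcripts. The hairpin falls within an intron of 8 of these transcripts and within an exon of 1, and the other 10 do not span it. No other mature mouse miRNA of the RefSeq table had the seed of miR-126a-3p. Its nearest sequence among 1678 other mature miRNAs was miR-126b-3p, 6 single-base changes, insertions or deletions away, and the next were 8 away. miR-126a-5p had no mature entry in the RefSeq table.

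Library totals ran from 322764 to 1172389 counts, and the ConA+Vehicle libraries were the shallowest. Replicates of a group differed by more than sampling noise, with a chi-square per degree of freedom of 89.9 in ConA+D8THC, 18.3 in ConA+Vehicle and 232 in Vehicle. This value grows with library totals, so it does not rank the groups by spread. The Vehicle replicates differed in the pan-haematopoietic miR-142a, present in blood cells of all lineages. It took 7.31% of counts in Vehicle replicate 1 and 2.53% in Vehicle replicate 2. The libraries are labelled as liver immune cells, and both miR-142a and miR-126a were abundant in all 6; the cells that the miR-126a counts came from were not tested.

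miR-126a-3p, the more abundant arm, took the highest level in Vehicle and the lowest in ConA+Vehicle. Levels are counts per 1000000 (CPM), on a library size scaled by TMM, a method that equalises libraries on the bulk of their miRNAs. For miR-126a-3p, replicates 1 and 2 were at 145317 and 193105 CPM in ConA+D8THC, at 88015 and 99394 CPM in ConA+Vehicle, and at 241922 and 284633 CPM in Vehicle. The 3 groups did not overlap, and the ConA+D8THC libraries lay between the others. It was the most abundant miRNA in both ConA+D8THC and both Vehicle libraries and ranked 2 in both ConA+Vehicle libraries, after the hepatocyte miRNA miR-122-5p. Group means were 169211 ± 33791 CPM in ConA+D8THC, 93705 ± 8046 CPM in ConA+Vehicle and 263277 ± 30201 CPM in Vehicle (SD, n = 2 each).

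miR-126a-5p, the less abundant arm, had its lowest levels in the same group. Replicates 1 and 2 were at 49994 and 68565 CPM in ConA+D8THC, at 33217 and 41514 CPM in ConA+Vehicle, and at 97922 and 66213 CPM in Vehicle. Both ConA+Vehicle libraries were below all others, while Vehicle replicate 2 was below ConA+D8THC replicate 2, so that these last groups overlapped. In rank of abundance it stood 5 and 4 in the ConA+D8THC libraries, 7 in both ConA+Vehicle libraries, and 2 and 3 in the Vehicle libraries. Together the arms made up 20.7% and 26.7% of all counts in ConA+D8THC, 12.8% and 13.2% in ConA+Vehicle, and 32.7% and 34.2% in Vehicle. The widest exact binomial 95% interval of such a share, in ConA+Vehicle replicate 2, ran from 13.1% to 13.3%, so that counting error was below the gap between replicates. In RNA pooled over many cells, fewer cells that carry miR-126a, less miR-126a per cell and more RNA from other cells cannot be told apart.

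**Figure D1:**
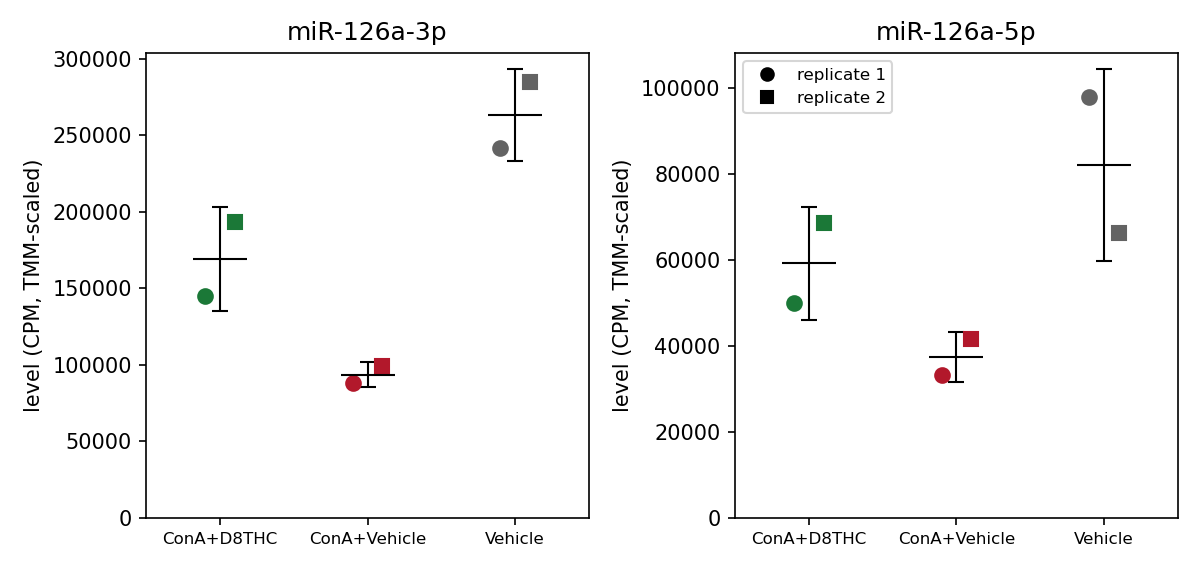
Level of each arm of miR-126a in CPM (y axis, starting at 0) by group (x axis); circles and squares are replicates 1 and 2, and the bar with whiskers is the mean ± SD (n = 2). For the 3p arm the 3 groups do not overlap, and for the 5p arm both ConA+Vehicle libraries lie below the rest while Vehicle replicate 2, at 66213 CPM, lies below ConA+D8THC replicate 2, at 68565 CPM.

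The comparison of ConA+Vehicle with Vehicle asks what ConA hepatitis changed. Both arms fell. miR-126a-3p was 2.81-fold lower in ConA+Vehicle (log2 -1.49 ± 0.24 SE; edgeR quasi-likelihood test, adjusted p = 0.000921). miR-126a-5p was 2.20-fold lower (log2 -1.14 ± 0.27 SE; edgeR, adjusted p = 0.00752). Of the 297 miRNAs tested, 36.7% were called, 50 of them lower (16.8%) and 59 higher (19.9%), and 44.4% had an unadjusted p under 0.05. The median log2 change of all 297 was 0.10. Groups that do not overlap, as for both arms, were found for 67.3% of the tested miRNAs. In order of fold change the 3p arm stood 25 from the lowest and the 5p arm 45. Among the 17 miRNAs with a mean of at least 10000 CPM, a minimum chosen after the values were seen, the 3p and 5p arms had the lowest and next lowest log2 changes. The other called decreases among these 17 were let-7c-5p and miR-26a-5p.

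The decrease of the 3p arm kept its direction without any one of the libraries, with log2 values from -1.62 to -1.35. Leaving out a library leaves its group with 1, so the spread in such a fit comes from the other groups. The 5p arm was not called without ConA+Vehicle replicate 1 (log2 -0.96, edgeR adjusted p = 0.0547). The size varied with the Vehicle library left out. Without Vehicle replicate 2 the values were log2 -1.35 for the 3p arm and -1.37 for the 5p arm. Without Vehicle replicate 1 they were -1.62 for the 3p arm and -0.84 for the 5p arm.

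The comparison of ConA+D8THC with ConA+Vehicle asks what D8THC changed in mice that all received ConA. Both arms were nominally higher in ConA+D8THC, and neither passed the threshold. miR-126a-3p was at log2 0.85 ± 0.24 (SE; edgeR, adjusted p = 0.0795, unadjusted p = 0.00455) and miR-126a-5p at log2 0.67 ± 0.27 (SE; edgeR, adjusted p = 0.200, unadjusted p = 0.0305). Every ConA+D8THC library was above every ConA+Vehicle library for each arm, a separation that 46.8% of the 297 miRNAs showed. edgeR called 0 miRNAs higher in this comparison (0%) and 11 lower (3.70%). At an unadjusted p under 0.05 it had 18.9% of miRNAs, 19 of them higher with both arms among these, and DESeq2 called 5 higher and limma-voom 1. By fold change the 3p arm stood 16 and the 5p arm 29 from the highest of 297, and they had the highest values of the 17 abundant miRNAs.

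The call of the 3p arm depended on the fit. It passed in DESeq2 (log2 0.95, adjusted p = 0.0144), with library totals in place of TMM (edgeR, adjusted p = 0.0334), with only the 4 libraries compared (0.0208), and without Vehicle replicate 1 (0.0211) or Vehicle replicate 2 (0.0129). It did not pass without replicate 1 (log2 1.06, edgeR adjusted p = 0.0760) or replicate 2 (log2 0.66, 0.747) of ConA+D8THC. Nor did it without either library of ConA+Vehicle (0.370 without replicate 1, 0.256 without replicate 2). The 5p arm passed without Vehicle replicate 2 (log2 0.68, edgeR adjusted p = 0.0488). More miRNAs passed in all when a Vehicle library was left out: 8 higher and 26 lower without Vehicle replicate 1, and 10 higher and 30 lower without Vehicle replicate 2, against 0 and 11 with all 6 libraries. With the 4 libraries compared, 4 were higher and 14 lower.

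**Figure D2:**
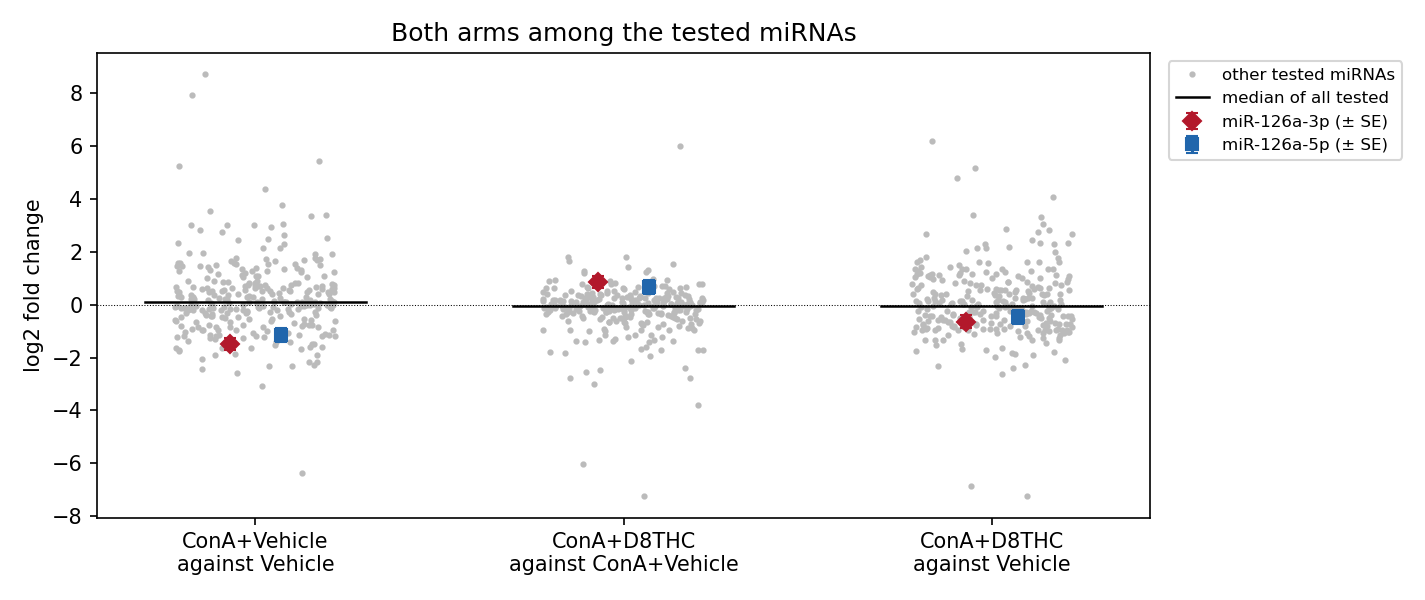
Log2 fold change (y axis) of the tested miRNAs in each comparison (x axis); grey points are the other tested miRNAs, black lines the median of all 297, the red diamond miR-126a-3p and the blue square miR-126a-5p, each ± SE. Both arms lie below the median in ConA+Vehicle against Vehicle (-1.49 and -1.14), above it in ConA+D8THC against ConA+Vehicle (0.85 and 0.67), and below it in ConA+D8THC against Vehicle (-0.64 and -0.47).

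ConA+D8THC was also compared with Vehicle, to ask how far mice given both agents were from mice without disease. miR-126a-3p was at log2 -0.64 ± 0.24 (SE; edgeR, adjusted p = 0.0615) and miR-126a-5p at log2 -0.47 ± 0.27 (SE; edgeR, adjusted p = 0.188). Neither arm was called, while 32.7% of the 297 miRNAs were, 14.1% lower and 18.5% higher; at an unadjusted p under 0.05 the share was 45.8%, with the 3p arm within it. The groups did not overlap for the 3p arm, as for 74.7% of miRNAs, and overlapped for the 5p arm. Without Vehicle replicate 1 the 3p arm was called lower (log2 -0.75, edgeR adjusted p = 0.0440). Its value was log2 -0.48 when Vehicle replicate 2 was left out and -0.43 when ConA+D8THC replicate 1 was. It was also called by limma-voom (log2 -0.65, adjusted p = 0.0463) and by edgeR with the miR-126a arms left out of the library sizes (log2 -0.74, 0.0432) or with a minimum of 10 CPM in 2 libraries (log2 -0.76, 0.0420). The 5p arm went as near to 0 as log2 -0.16 without Vehicle replicate 1. The 3 comparisons share libraries in pairs and are not independent of each other.

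The ratio of the arms does not depend on library size. In replicates 1 and 2 the 3p arm had 2.91 and 2.82 counts per 5p count in ConA+D8THC, 2.65 and 2.39 in ConA+Vehicle, and 2.47 and 4.30 in Vehicle. Vehicle replicate 2 had the highest ratio and the other 5 libraries lay close together, with the ConA+D8THC values inside the range of the Vehicle group, ConA+Vehicle replicate 1 inside it and ConA+Vehicle replicate 2 below it. As a share of both arms, 5p made up 25.9% ± 0.428 in ConA+D8THC, 28.4% ± 1.46 in ConA+Vehicle and 23.8% ± 7.03 in Vehicle (SD, n = 2 each).

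The ratio was tested with limma on the log2 ratios of all 66 hairpins whose arms both passed the filter. The log2 3p/5p ratio of miR-126a in ConA+Vehicle less that in Vehicle was -0.37 ± 0.33 (SE; limma, adjusted p = 0.377). In ConA+D8THC it was 0.18 ± 0.33 above ConA+Vehicle (SE; limma, adjusted p = 0.781) and at -0.19 ± 0.33 relative to Vehicle (SE; limma, adjusted p = 0.736). Of the 66 hairpins, 21.2% were called in ConA+Vehicle against Vehicle and 10.6% in ConA+D8THC against Vehicle. Between ConA+D8THC and ConA+Vehicle limma called 0 (0%), with 6 at an unadjusted p under 0.05; no other tool was run on the ratios. These counts depended on the fit. The 14 hairpins called in ConA+Vehicle against Vehicle became 2 with no trend, 2 of 77 without ConA+Vehicle replicate 2, 6 of 78 without Vehicle replicate 1, 7 of 75 without Vehicle replicate 2, 8 of 77 without ConA+D8THC replicate 1, 7 of 59 with the 4 libraries compared and 22 of 78 without ConA+Vehicle replicate 1. The 7 called in ConA+D8THC against Vehicle became 1 with no trend, 14 with 1 added to each count, 11 of 28 with at least 10 counts per arm in every library, 16 with the 4 libraries compared, and 15 of 78 and 16 of 77 without ConA+Vehicle replicates 1 and 2 in turn. The 0 called between ConA+D8THC and ConA+Vehicle became 2 of 28 with at least 10 counts per arm and 1 of 77 without ConA+Vehicle replicate 2. The differences of miR-126a were smaller than the median absolute difference of all 66 hairpins, which was 0.84, 0.40 and 0.80 in the order of comparisons used above.

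The sign of the difference from Vehicle rested on 1 library. Without Vehicle replicate 1 the log2 ratio was -0.77 in ConA+Vehicle against Vehicle and -0.59 in ConA+D8THC against Vehicle. Without Vehicle replicate 2 the values were 0.028 and 0.21, of the opposite sign. Each of these fits had 1 Vehicle library and so held no spread within Vehicle. Between the Vehicle replicates the log2 ratio differed by 0.80, against a median absolute gap of 0.40 over the 66 hairpins.

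**Figure D3:**
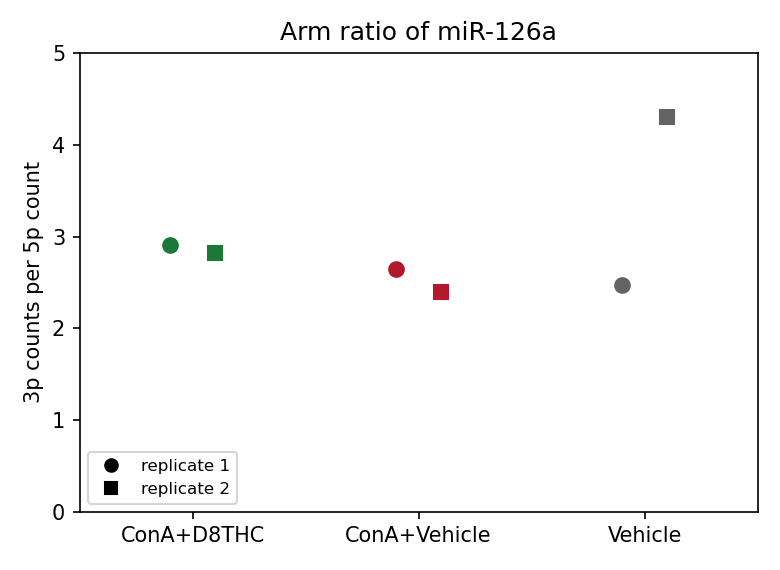
Counts of miR-126a-3p per count of miR-126a-5p (y axis, starting at 0) by group (x axis); circles and squares are replicates 1 and 2. Vehicle replicate 2 has 4.30 counts of 3p per 5p count, and the other 5 libraries lie between 2.39 and 2.91.

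Marker miRNAs of other cell types were summed in the same libraries, and their shares did not all run alike across the groups. All 6 hepatocyte miRNAs (miR-122-5p, miR-122-3p, miR-192-5p, miR-194-5p, miR-802-5p and miR-148a-3p) had counts in every library, and their summed share was 5.18 to 7.15% in ConA+D8THC, 17.1 to 19.7% in ConA+Vehicle and 8.35 to 13.9% in Vehicle. In ConA+Vehicle against Vehicle 4 of the 6 were called higher, miR-122-3p was called lower (log2 -1.19; edgeR, adjusted p = 0.0167), and miR-122-5p was not called (log2 0.62, 0.124). Of the same 6, 4 were called lower in ConA+D8THC against ConA+Vehicle and 0 higher. The 2 arms of miR-142a had counts in every library and took 7.72 to 11.2% in ConA+D8THC, 9.03 to 10.3% in ConA+Vehicle and 2.53 to 7.31% in Vehicle. The 4 myeloid miRNAs, both arms of miR-223 and of miR-511, none of them at 0, took 1.48 to 2.18% in ConA+D8THC, 2.76 to 2.92% in ConA+Vehicle and 0.348 to 0.365% in Vehicle. Their members went in opposite directions: in ConA+Vehicle against Vehicle both arms of miR-223 were called higher (log2 3.02 for miR-223-3p and 1.95 for miR-223-5p) and both arms of miR-511 lower (log2 -3.10 for miR-511-3p and -1.88 for miR-511-5p). miR-223-3p made up most of the myeloid sum, with 10460 of 10508 counts in ConA+Vehicle replicate 1. The 5 miRNAs of stellate cells, smooth muscle and fibroblasts, also none at 0, took 0.743 to 1.26% in ConA+D8THC, 0.740 to 1.29% in ConA+Vehicle and 1.28 to 1.32% in Vehicle. In ConA+Vehicle against Vehicle edgeR called 2 of these 5 lower (16.8% over all 297), 0 higher (19.9%) and 3 in neither direction. One of the called decreases was that of miR-199a-3p (log2 -1.15; edgeR, adjusted p = 0.00391). The replicates of ConA+Vehicle differed in miR-143-3p, at 7929 CPM in replicate 1 and 3773 CPM in replicate 2. The 4 lymphocyte miRNAs took 0.642 to 1.05% in ConA+D8THC, 0.874 to 1.12% in ConA+Vehicle and 0.566 to 0.814% in Vehicle, and the 4 erythroid and 5 bile duct miRNAs, like them none at 0, took at most 0.509% in any library. Groups overlapped between ConA+Vehicle and Vehicle for the stellate, erythroid and bile duct shares. In each of the 3 comparisons edgeR called 0 of the erythroid and 0 of the bile duct miRNAs. Over all 297 it called 36.7% in ConA+Vehicle against Vehicle, 3.7% in ConA+D8THC against ConA+Vehicle and 32.7% in ConA+D8THC against Vehicle. The part of these cell types in the miR-126a results was not tested.

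Ratios within a library set miR-126a against one marker list at a time. Per count of the hepatocyte list, miR-126a had 4.004 and 3.73 counts in ConA+D8THC, 0.748 and 0.669 in ConA+Vehicle, and 3.91 and 2.46 in Vehicle. ConA+Vehicle stood below both other groups, which overlapped. The hepatocyte list was not constant itself, with a mean share of 6.17% in ConA+D8THC, 18.4% in ConA+Vehicle and 11.1% in Vehicle. miR-122-5p made up most of it, with 55215 of 65070 counts in ConA+Vehicle replicate 1. The mean share of miR-126a itself was 23.7% in ConA+D8THC, 13.0% in ConA+Vehicle and 33.4% in Vehicle. Per count of miR-142a, miR-126a had 1.86 and 3.45 counts in ConA+D8THC, 1.24 and 1.46 in ConA+Vehicle, and 4.48 and 13.5 in Vehicle. Here the groups did not overlap. The mean of ConA+D8THC (2.65) was nearer to that of ConA+Vehicle (1.35) than to that of Vehicle (8.99). That Vehicle mean rested largely on replicate 2, the Vehicle library with the lower miR-142a share. ConA+D8THC replicate 2 was nearer to Vehicle replicate 1 than to either ConA+Vehicle library.

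Set against the miRNAs of stellate cells, smooth muscle and fibroblasts, miR-126a had 27.9 and 21.1 counts per count of the list in ConA+D8THC, 9.90 and 17.8 in ConA+Vehicle, and 25.6 and 25.96 in Vehicle. ConA+Vehicle was again below both other groups, with ConA+D8THC spanning the Vehicle values. This list was not constant in every member. Of its 5 members, 2 were called lower in ConA+Vehicle against Vehicle and 0 higher, beside 16.8% lower and 19.9% higher over all 297. With 2 against 2 libraries an exact two-sided permutation test of one such value cannot go below p = 0.333, so the ratios and shares are given without a test.

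**Figure D4:**
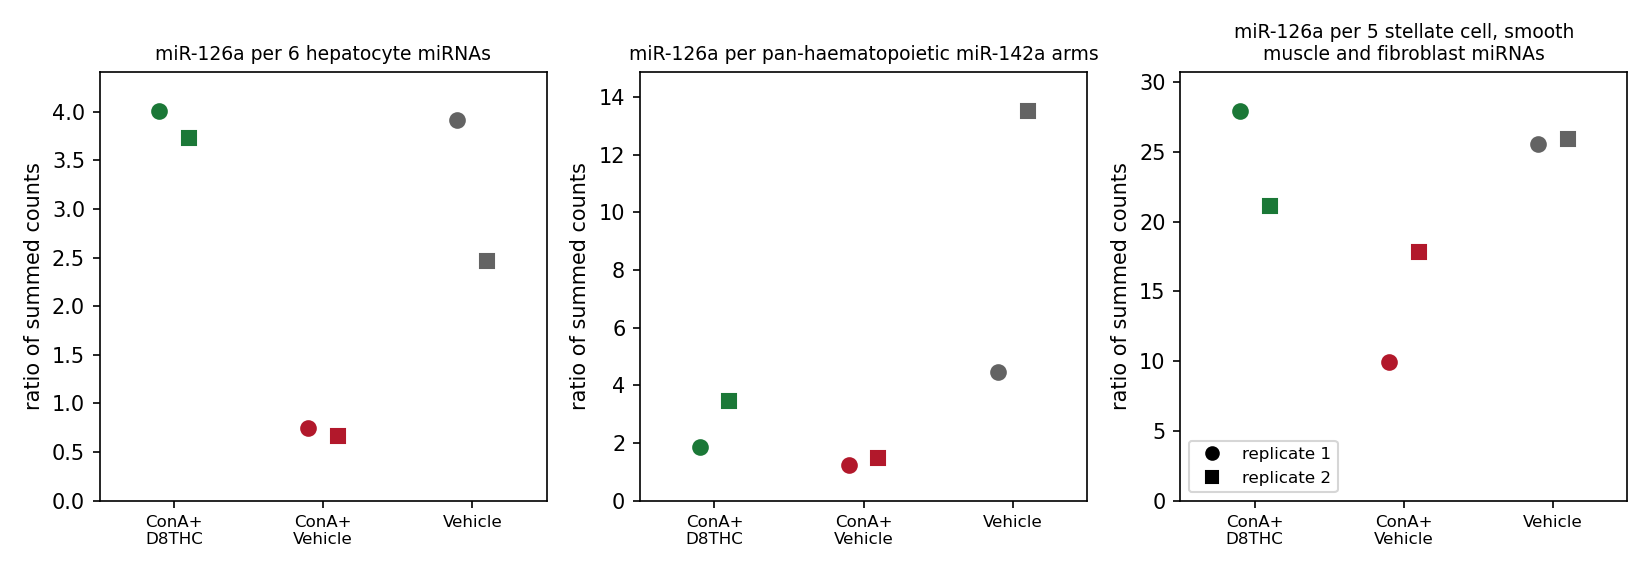
Summed counts of the miR-126a arms divided by the summed counts of a marker list in the same library (y axes, starting at 0, each with its own scale) by group (x axis); circles and squares are replicates 1 and 2. ConA+Vehicle is lowest in each panel, and against miR-142a the ConA+D8THC libraries (1.86 and 3.45) stay below the Vehicle libraries (4.48 and 13.5).

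Other miRNAs tied to endothelium and vessel growth did not share 1 direction. Of 24 on the list, 21 were tested, and in ConA+Vehicle against Vehicle 8 fell, 4 rose and 9 were not called. Leaving aside the arms of miR-126a, 6 of 19 fell and 4 rose, with a median log2 change of -0.10 against 0.10 over all 297 miRNAs, and shares of called miRNAs over all 297 of 16.8% lower and 19.9% higher. miR-10a-5p, which in endothelium is known to respond to blood flow and to curb inflammatory signalling, fell most among the list members with a mean of at least 500 CPM (log2 -1.62 ± 0.20 SE; edgeR, adjusted p = 0.000348). miR-92a-3p, known to inhibit vessel growth in endothelial cells, rose (log2 1.74 ± 0.23 SE; edgeR, adjusted p = 0.000379). miR-23b-3p (log2 -0.97), miR-24-3p (-0.86), miR-23a-3p (-0.85) and miR-27a-3p (-0.63), members of gene clusters known to act in endothelial sprouting, also fell. miR-221-3p, a repressor of the stem cell factor receptor Kit, rose (log2 0.76). miR-27b-3p, miR-322-5p and miR-101a-3p were not called, with log2 values of -0.24, -0.10 and -0.03. The remaining calls, named after their values were seen, were miR-10b-5p lower (log2 -1.31), and the hypoxia-responsive miR-210-3p (2.81) and miR-503-5p (0.91) higher.

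Several of these calls rested on single libraries or on the fit. The count of 8 lower became 4 when replicate 1 or replicate 2 of ConA+Vehicle was left out, and the 4 higher became 2 in each case. The 4 higher also became 2 in DESeq2, with no filter, and with miR-126a left out of library sizes. miR-10a-5p, miR-10b-5p, miR-92a-3p and miR-210-3p were called without any one library. The call of miR-23b-3p ended without ConA+Vehicle replicate 2 (edgeR, adjusted p = 0.0999), and 5 calls ended on leaving out either ConA+Vehicle library. Without replicates 1 and 2 of ConA+Vehicle in turn, the adjusted p was 0.0520 and 0.134 for miR-23a-3p, 0.0552 and 0.130 for miR-24-3p, and 0.192 and 0.275 for miR-27a-3p. It was 0.195 and 0.0505 for miR-221-3p, and 0.101 and 0.163 for miR-503-5p. Leaving out Vehicle replicate 2 ended the calls of miR-24-3p (0.0792) and miR-221-3p (0.0532), and leaving out Vehicle replicate 1 those of miR-27a-3p (0.0655) and miR-503-5p (0.126). The call of miR-27a-3p also ended without ConA+D8THC replicate 2 (0.0864). It ended, too, under upper-quartile scaling (0.0686), with hepatocyte markers left out of library sizes (0.0642) and with no filter (0.148). That of miR-221-3p ended with miR-126a left out of library sizes (0.0566), with no filter (0.151) and in DESeq2 (0.0614). That of miR-503-5p ended in these 3 fits (0.0842, 0.171 and 0.124) and with RLE factors (0.0697), at least 10 CPM in 2 libraries (0.0662) or the 4 libraries compared (0.0555).

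Between ConA+D8THC and ConA+Vehicle edgeR called 0 of the 21 list members and limma-voom 0, while DESeq2 called 2 higher, miR-126a-3p and miR-10a-5p. At an unadjusted p under 0.05 edgeR had 3 higher, both arms of miR-126a and miR-10a-5p (log2 0.65 ± 0.19 SE; edgeR, adjusted p = 0.0876), and 2 lower, miR-130a-3p (log2 -0.74) and miR-31-5p (-0.86). These 5 of 21 stand beside 18.9% of all 297 miRNAs at that threshold. miR-10a-5p was called by edgeR when Vehicle replicate 1 (adjusted p = 0.0380) or Vehicle replicate 2 (0.0282) was left out, and with the 4 libraries compared (0.0468). The list median, miR-126a included, was log2 0.20, against -0.04 over all 297. Set against Vehicle, ConA+D8THC had 5 of 21 members called higher and 6 lower, beside 18.5% higher and 14.1% lower over all 297, with neither arm of miR-126a among them; leaving out 1 library moved these counts to between 3 and 6 higher and between 2 and 6 lower. The low values were 3 higher and 2 lower without ConA+D8THC replicate 1, 2 lower without Vehicle replicate 2 and 3 lower without ConA+Vehicle replicate 2; 3 were also lower with library totals, with no filter and with the 4 libraries compared.

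**Figure D5:**
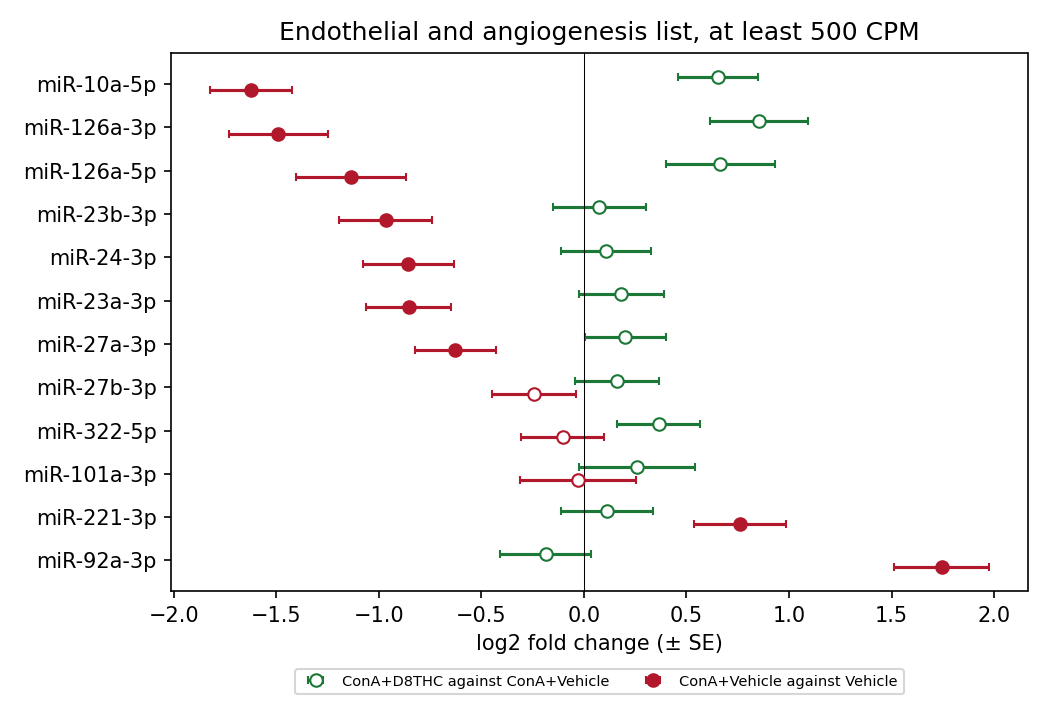
Log2 fold change ± SE (x axis) of the 12 members of the endothelial and angiogenesis list with a mean of at least 500 CPM (y axis), in ConA+D8THC against ConA+Vehicle (green) and ConA+Vehicle against Vehicle (red); filled points were called by edgeR at an adjusted p under 0.05. Members run from miR-10a-5p at -1.62 to miR-92a-3p at 1.74 in ConA+Vehicle against Vehicle, and no point is filled in ConA+D8THC against ConA+Vehicle.

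The miRNAs whose levels ran most like miR-126a-3p were found by Pearson's r of log2 CPM over the 6 libraries, among 145 others with a mean of at least 100 CPM. They were miR-125b-5p (r = 0.988), miR-100-5p (0.984), miR-99a-5p (0.981), miR-199a-3p (0.979) and miR-125a-5p (0.967). Because they were picked for likeness over the same 6 libraries, their group differences largely follow from the choice and are no separate support. The 5 fell in ConA+Vehicle against Vehicle, by log2 values between -1.77 for miR-100-5p and -1.09 for miR-125b-5p. Their log2 differences, ConA+D8THC over ConA+Vehicle, were between 0.52 and 0.82 and none was called (edgeR, adjusted p from 0.0765 to 0.190). Their mature sequences are shown because they fall into seed families, none of which is that of miR-126a-3p; seeds are in capitals, from RefSeq in GRCm38.p6.
miR-125b-5p: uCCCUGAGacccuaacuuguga
miR-125a-5p: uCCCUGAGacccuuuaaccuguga
miR-100-5p: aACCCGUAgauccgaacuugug
miR-99a-5p: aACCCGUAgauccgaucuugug
miR-199a-3p: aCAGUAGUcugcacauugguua

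miR-125b-5p and miR-125a-5p share the seed CCCUGAG, and miR-100-5p and miR-99a-5p share ACCCGUA, so that within each pair the sequences are close and reads could be counted for the wrong one. For miR-126a-5p the nearest was miR-542-3p (r = 0.993), followed by miR-99a-5p (0.927), miR-100-5p (0.915), miR-199a-3p (0.915) and miR-10b-5p (0.899). miR-542-3p was at 290 ± 62.7 CPM in ConA+D8THC, 170 ± 21.7 CPM in ConA+Vehicle and 383 ± 76.8 CPM in Vehicle (SD, n = 2 each). Its decrease in ConA+Vehicle (log2 -1.17, edgeR adjusted p = 0.00839) was not called without ConA+Vehicle replicate 1 (0.0725). The arms of miR-126a had r = 0.898 with each other, lower than each arm's r with its nearest miRNA. These values describe 6 libraries that share their preparation, and each r also carries the group differences. The decrease of miR-542-3p, too, largely follows from its choice by r.

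The miR-126b hairpin is the reverse complement of 58 bases of the Mir126a hairpin, and its 5p arm overlaps the 3p arm of miR-126a by 19 bases on the other strand. miR-126b-3p had 6 and 3 counts in ConA+D8THC, 1 and 2 in ConA+Vehicle, and 6 and 7 in Vehicle, too few for a test. miR-126b-5p had 0 counts in all 6 libraries, which allows up to 2.56 to 9.29 CPM of a library total (3 counts per library). Per the annotation miR-126b is read from the strand opposite to Egfl7.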

How the data were processed

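Small RNA was sequenced from isolated mouse liver immune cells, in 6 libraries of 3 groups. Per the labels' protocols, livers were dissociated with a Miltenyi kit, RNA came from a miRNeasy kit and libraries from a QIAseq miRNA kit. The deposited values are raw counts of each mature miRNA, made by the authors in QIAGEN's GeneGlobe portal, per the series' design text, with build mm10 per the submitters' processing notes. The sources used here do not state the aligner, how multi-mapping reads and strand were handled, or whether counts are of reads or of unique molecular identifiers.

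Counts were tested in R 4.3.3 with edgeR 4.0.16: filterByExpr (297 of 1960 miRNAs, at least 99.9% of each library), TMM, robust glmQLFit on all 6 libraries by group (3 residual degrees of freedom), and Benjamini-Hochberg over 297, called under 0.05. Each SE was derived from its F statistic, as |log2 fold change| divided by √F. Arm ratios, log2 with 0.5 added to each count, went to limma 3.58.1 over 66 hairpins, with a trend on the less abundant arm. DESeq2 1.42.0, limma-voom, other scalings and filters, and leaving out each library were alternatives. A fit without 1 library has a group of 1, and its p-values hold no spread within that group. For the list members and the most alike miRNAs, these alternatives were chosen after seeing the data. Figures were drawn with matplotlib 3.10.9. The procedures were tested on simulated data with planted changes. For arm ratios these were larger than any difference seen for miR-126a, so detection of such small differences was not tested.

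Named miRNAs were both members, miR-126b, the 5 most alike to each arm, and members of a list of 24 with a mean of at least 500 CPM. The members and lists were chosen with earlier results of these data known. Intervals and floors cover counting error only; p-values measure the spread between libraries, which the labels call biological replicates.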

Additional observations from a re-analysis of the deposited data

How the results depend on the processing

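Of 17 alternatives each, all kept the call of miR-126a-3p in ConA+Vehicle against Vehicle, with log2 values from -1.64 to -1.35 and adjusted p-values from 1.93e-08 to 0.00570, and 16 kept that of miR-126a-5p (leaving out 1 library, -1.37 to -0.84; adjusted p at most 0.0547). In ConA+D8THC against ConA+Vehicle miR-126a-3p kept its direction (0.66 to 1.06 leaving out 1 library; adjusted p from 0.00146 to 0.747) and passed in 6, at log2 0.92 with library totals, 0.95 in DESeq2, 0.84 with the replicate block, 0.84 with the 4 libraries compared, and without either Vehicle library; miR-126a-5p (0.45 to 0.89) passed in 2, one of them with the replicate block (0.66). In ConA+D8THC against Vehicle miR-126a-3p (-0.82 to -0.43) passed in 5, at -0.74 with miR-126a left out of library sizes, -0.76 with at least 10 CPM in 2 libraries, -0.65 in limma-voom, -0.65 with the replicate block and without Vehicle replicate 1; miR-126a-5p (-0.69 to -0.16) passed in none of its 17.

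Leaving out 1 library, the log2 arm ratio ran from -0.77 to 0.028 in ConA+Vehicle against Vehicle, from 0.11 to 0.26 in ConA+D8THC against ConA+Vehicle and from -0.59 to 0.21 in ConA+D8THC against Vehicle. miRNAs called numbered 67 to 129, 8 to 40 and 63 to 112 in these comparisons when 1 library was left out. In ConA+D8THC against ConA+Vehicle, 11 called became 17 with upper-quartile factors, 19 with no filter, 17 in DESeq2, 44 with the replicate block and 18 with the 4 libraries compared. With hepatocyte markers left out of the total, the share of miR-126a was 15.9% in ConA+Vehicle and 37.7% in Vehicle; leaving out 1 library it ran from 20.7% to 26.7% in ConA+D8THC, 12.8% to 13.2% in ConA+Vehicle and 32.7% to 34.2% in Vehicle. The cause of these changes was not tested. For the arm ratio against Vehicle, the sign depended on which Vehicle replicate was left out. Whether replicate numbers pair the libraries was not settled. Replicate differences of 2 groups correlated weakly, at 0.19, 0.08 and 0.22 across miRNAs, in the same order of comparisons. With the replicate block 132, 44 and 133 miRNAs were called in these comparisons, against 109, 11 and 97 without it. The scaling moved the median log2 change of all 297 miRNAs to between -0.04 and 0.17 in ConA+Vehicle against Vehicle, and to between -0.15 and 0.06 in ConA+D8THC against ConA+Vehicle; relative to that median miR-126a-3p was between -1.61 and -1.59 and between 0.89 and 0.90 in these comparisons. A change of scaling shifts all miRNAs nearly alike, so a narrow range relative to the median largely follows from the method. For the share of miR-126a, counting error was below the gap between replicates. The part of library depth in the other values was not tested.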
